A study of Mus musculus with 4 samples.

Results

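Interferon-stimulated genes (ISGs) are the genes that a cell transcribes when it senses an interferon, and 39 of them, picked by gene symbol, are followed here through the immune cells of the mouse lung. All 39 symbols were found, each as 1 row, among the 31053 genes of the deposited count matrices. The cells came from C57BL/6 mice with floxed Ift20 alleles, either without Cre (Ift20 f/f, WT) or with it (Ift20 f/f CD4 cre, KO). The CD4 promoter turns Cre on in developing T cells, so all T cells that pass through a CD4 stage, CD8 T cells included, are affected, while monocytes, macrophages, neutrophils and B cells should keep the gene. Mice of each genotype received either DPBS, a buffered saline, or papain, a protease allergen, given intranasally (25 µg) on 3 days, with a challenge on day 14 and collection on day 15. Live (7-AAD-negative) CD45.2+ cells were sorted, and 1 library of 10x Genomics 3' v3 chemistry was made for each of the 4 groups, named Papain KO, Papain WT, DPBS KO and DPBS WT. Male mice aged 5 to 10 weeks were used, and the number of mice behind a library is not given in the sources used here.

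Interferons come in families that use different receptors. Type I interferons (alpha and beta) bind IFNAR1 and IFNAR2 and, through the kinases JAK1 and TYK2, lead to the assembly of ISGF3, a complex that holds STAT2 and IRF9. ISGF3 binds the interferon-stimulated response element (ISRE) in the promoters of ISGs. Type II interferon (gamma), made mostly by NK cells and T cells, acts through the gamma-activated site (GAS). Most ISGs answer type I interferon, and some, such as Irf1 and the guanylate-binding proteins, answer interferon gamma strongly. Resting cells already express many ISGs at a low level kept up by traces of type I interferon, and circulating Ly6C-high monocytes are known to carry such a signature.

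The response element itself can be read in the promoters. RefSeq promoter windows on build GRCm38.p6, which run from 250 bases before to 50 bases after an annotated start, were held for 30 of the 39 members. The others were Parp14, Usp18, Zbp1, Rtp4, Mx1, Oas2, Dhx58, Iigp1 and Gbp4. Below are the 250 bases before the start of 5 members whose windows hold the ISRE core (GAAA, any 2 bases, GAAA, on either strand). They are examples of members with a match. Each is written 5' to 3' on the gene's strand, with each match in capitals. Ifit1 lies at chr19:34640639-34640888 on the plus strand, Ifit3 at chr19:34583279-34583528 on the plus strand, Isg15 at chr4:156200819-156201068 on the minus strand, Rsad2 at chr12:26456453-26456702 on the minus strand and Gbp2 at chr3:142620413-142620662 on the plus strand.
Ifit1: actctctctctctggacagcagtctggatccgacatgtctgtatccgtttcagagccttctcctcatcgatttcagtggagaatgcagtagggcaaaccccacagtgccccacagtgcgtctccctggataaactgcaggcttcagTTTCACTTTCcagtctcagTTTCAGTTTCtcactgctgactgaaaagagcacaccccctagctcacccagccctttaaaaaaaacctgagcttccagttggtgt
Ifit3: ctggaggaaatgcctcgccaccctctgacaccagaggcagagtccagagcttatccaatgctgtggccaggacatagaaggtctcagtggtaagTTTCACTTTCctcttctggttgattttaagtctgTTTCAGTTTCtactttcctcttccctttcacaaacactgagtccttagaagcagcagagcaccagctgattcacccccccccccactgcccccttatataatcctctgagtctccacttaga
Isg15: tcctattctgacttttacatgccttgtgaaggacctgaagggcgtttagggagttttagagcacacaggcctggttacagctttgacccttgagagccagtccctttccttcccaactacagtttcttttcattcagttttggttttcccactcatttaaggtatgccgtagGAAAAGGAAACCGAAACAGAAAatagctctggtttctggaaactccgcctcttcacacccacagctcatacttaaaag
Rsad2: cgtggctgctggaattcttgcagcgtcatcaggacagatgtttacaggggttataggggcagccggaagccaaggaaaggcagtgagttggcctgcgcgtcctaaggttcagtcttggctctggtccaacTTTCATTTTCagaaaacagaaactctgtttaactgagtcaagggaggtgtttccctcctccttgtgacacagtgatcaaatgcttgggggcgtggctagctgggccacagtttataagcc
Gbp2: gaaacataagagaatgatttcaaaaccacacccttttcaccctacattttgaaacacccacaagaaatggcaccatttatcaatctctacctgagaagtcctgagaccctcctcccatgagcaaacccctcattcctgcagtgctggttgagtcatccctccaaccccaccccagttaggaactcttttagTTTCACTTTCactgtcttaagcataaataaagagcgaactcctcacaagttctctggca

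The matches of Ifit1 began 104 and 85 bases before the start, and those of Ifit3 156 and 122 bases before it. In Isg15, 3 overlapping matches began 78, 72 and 66 bases before the start and form 1 run of capitals. Rsad2 had 1 match, 120 bases before the start, and Gbp2 had 1, 59 bases before it. An ISRE core was found in the windows of 19 of the 30 members (63.3%), against 3.99% of the 27025 symbols with a window in the RefSeq table. The GAS core (TTC, any 3 bases, GAA) was found in 9 of 30 members (30%), against 9.55% of all symbols. By role, the ISRE core was held by 5 of 6 GTPase genes with a window, by 3 of 4 IFIT genes and by 3 of 3 antiviral effectors, but by 1 of 4 transcription factor genes, Stat2. Irf1, Irf7, Irf9 and the IFIT gene Ifit2 had no such letters in these windows. Of the 30 matches, 25 began before the start, and the median position of all 30 was -56 bases (range -222 to 32). These are matches of letters, not measured binding sites.

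**Figure D1:**
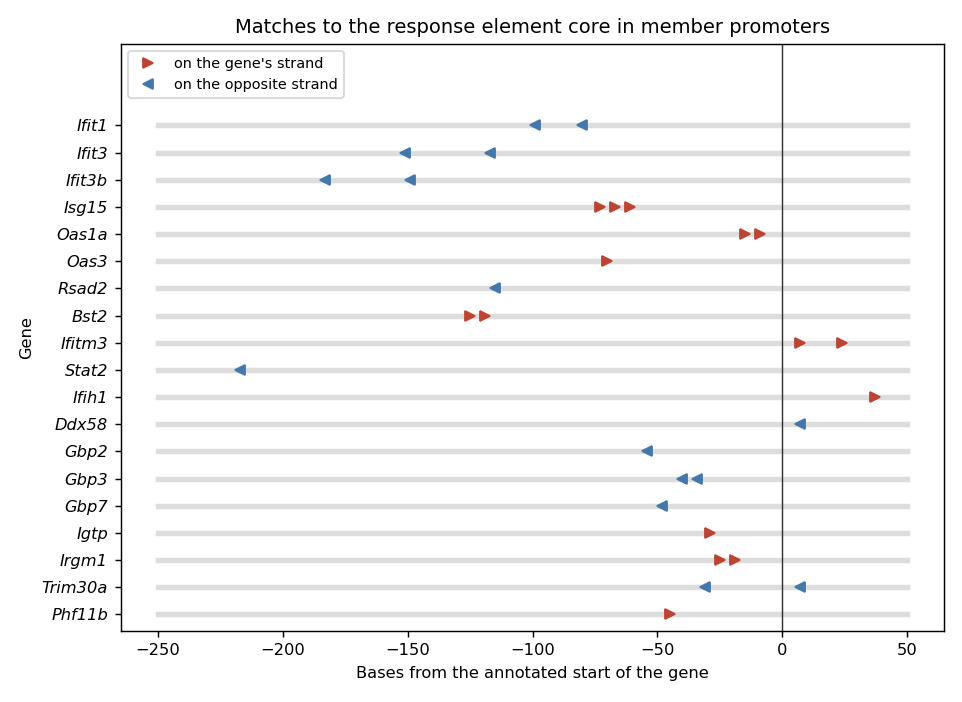
Matches to the ISRE core (arrowheads at the centre of the match, pointing along the strand that carries GAAA) in the promoter windows of the 19 members that hold one, by distance in bases from the annotated start (grey bar: the window searched). Of the 30 matches, 25 begin before the start, and matches downstream of it are seen in Ifitm3, Ifih1, Ddx58 and Trim30a.

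Several members are neighbours in the genome or near-copies of each other. The 4 IFIT genes lie together on chromosome 19, between 34550694 and 34650009 (GENCODE M21, GRCm38). The Oas and Oasl genes lie on chromosome 5 with Gbp4, the genes Gbp2, Gbp3 and Gbp7 on chromosome 3, and Irf1, Ifi35, Ifi47, Dhx58, Xaf1, Igtp and Irgm1 on chromosome 11. These libraries capture transcript ends, so reads from an end that genes share cannot be told apart by gene. Of the 50-base stretches in the last 600 bases of its coding transcripts, Oas1a shared 64.1% with other genes (Oas1g), Phf11b 37.9%, Gbp4 18.5% (Gbp6 and Gbp9), Ifit3 17.97% (Ifit3b) and Ifitm3 11.4%. The values of these genes are uncertain for that reason, by an amount that was not measured.

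The libraries held 5863 to 8552 barcodes and 53854420 to 75675956 UMIs (unique molecular identifiers, counts of captured molecules), and 5421 to 7559 cells were kept, with medians of 5827 to 6678 UMIs per cell. Any 2 libraries shared 7 to 16 barcode sequences. Levels are CPM, counts of a gene per 1000000 UMIs, summed over the cells of a class in a library. Where 4 values follow each other, they are those of WT and KO after DPBS, followed by WT and KO after papain. Classes were rebuilt from clusters by marker genes, with the members and their pathway kept out of the clustering, and are called by the name of the markers with the ending -like. Parentheses after a level, share or log2 ratio hold 95% intervals, which cover counting error only. With 1 library per group there is no test between groups: even an exact sign-flip permutation over the 4 libraries could not go below a two-sided p of 0.125, so no p is given. The 4 comparisons (papain against DPBS within a genotype, KO against WT within a treatment) each use 2 of the same 4 libraries, so they are not independent. The targeted gene went with the labels. Ift20 stood at 55.2, 21.2, 55.8 and 17.4 CPM in CD4 T-like cells, at 50.01, 16.3, 49.3 and 17.5 CPM in CD8 T-like cells and at 49.7, 47.9, 52.3 and 48.96 CPM in classical monocyte-like cells.

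Across the immune lineages the members were not spread evenly. The 9 named classes with at least 50 cells in each library were compared for levels (unnamed clusters were left out), and 22 of the 39 members had their highest mean over the 4 libraries in classical monocyte-like cells, 10 in neutrophil-like cells, 4 in CD4 T-like cells, 2 in NK-like cells and 1 in CD8 T-like cells. The median member stood at 54.2, 34.8, 44.8 and 29.8 CPM in classical monocyte-like cells and at 22.1, 14.2, 21.2 and 15.3 CPM in nonclassical monocyte-like cells. In neutrophil-like cells it stood at 22.1, 11.6, 23.8 and 17.4 CPM, in CD4 T-like cells at 20.2, 13.2, 17.3 and 14.97 CPM and in B-like cells at 11.1, 10.4, 11.02 and 10.4 CPM. The lowest medians were those of alveolar macrophage-like cells, at 4.82, 5.196, 8.33 and 5.95 CPM, and ILC2-like cells, at 3.11, 3.502, 7.44 and 8.83 CPM. The values of classical monocyte-like cells lay above those of every other class in each library, whereas nonclassical monocyte-like, neutrophil-like and T-like cells overlapped in the order of their medians.

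**Figure D2:**
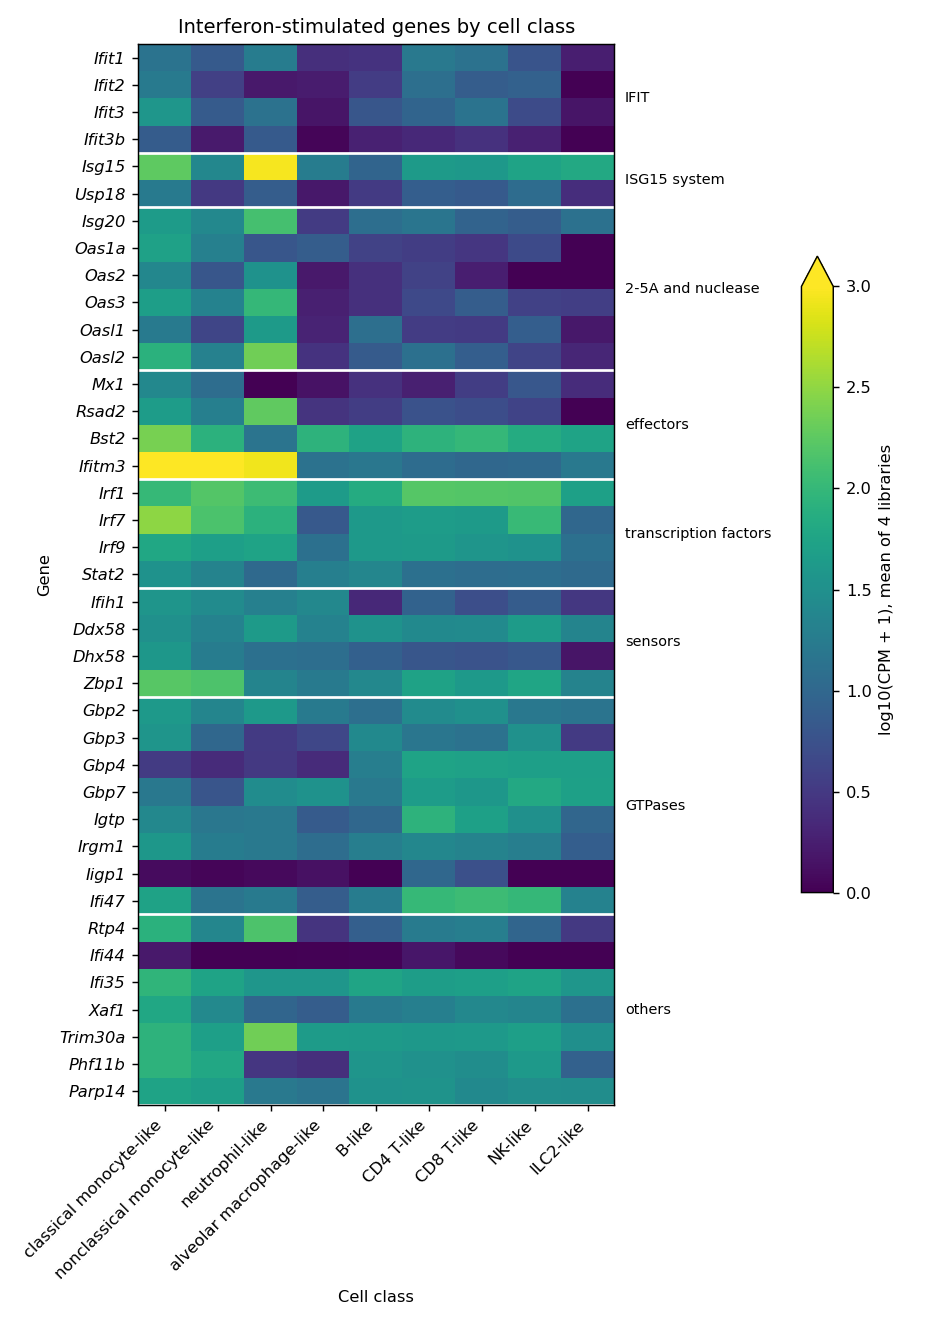
Mean level of the 39 members (rows, grouped by role) in the 9 compared classes (columns), as log10(CPM + 1) averaged over the 4 libraries, with colours capped at 3. Classical monocyte-like and neutrophil-like cells hold most of the bright cells of the map, and Gbp4, Igtp, Iigp1 and Ifi47 are brightest in lymphoid columns.

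Classical monocyte-like cells came from 1 cluster led by F13a1, Ifitm3, Plac8 and Ifitm6. It held 344, 287, 441 and 268 cells. The 5 classical monocyte markers summed to 2017, 1490.5, 2318 and 1325 CPM there, and the 6 nonclassical markers to 1578, 1488, 1052 and 1499.5 CPM, so the cluster also held cells of the nonclassical kind. For 6 members the lowest library of this class lay above the highest library of each of the other 8 classes: Oas1a, Irf7, Bst2, Ifi35, Dhx58 and Ifitm3. Irf7, the transcription factor that amplifies type I interferon production, stood at 393, 339, 247 and 245 CPM, against 145, 157, 132 and 122 CPM in nonclassical monocyte-like and 4.82, 3.89, 9.02 and 5.59 CPM in alveolar macrophage-like cells. Bst2, which encodes tetherin, a protein that holds budding virions on the cell, stood at 332, 231, 220.2 and 178 CPM, and at 93.3, 86.1, 86.1 and 72.9 CPM in nonclassical monocyte-like cells. Both genes were thus higher in the classical than in the nonclassical class in every library.

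Ifitm3 encodes a membrane protein that blocks virus entry. It stood at 5887, 5220.02, 4983 and 4799 CPM in classical monocyte-like cells and at 4470.2, 3661, 3573 and 3577 CPM in nonclassical monocyte-like cells. In neutrophil-like cells it stood at 955, 766, 909.9 and 833 CPM, and the other 6 classes had means of 9.06 to 15.4 CPM. Those low means are in lymphoid cells and macrophages, and the part of free RNA of this abundant monocyte transcript in them was not tested. Zbp1, a sensor of Z-form nucleic acids, followed the monocytes as well, with means of 164 CPM in the classical and 143 CPM in the nonclassical class against 57.2 CPM in NK-like cells. Phf11b had means of 84.998 and 61.3 CPM in these monocyte classes and 1.98 CPM in neutrophil-like cells.

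Among the other members with their highest mean in classical monocyte-like cells were the sensors Ifih1 (encoding MDA5), at 49.7, 30.2, 37.2 and 23.8 CPM, and Dhx58 (encoding LGP2), at 49.7, 32.2, 44.8 and 26.1 CPM. Irf9 and Stat2, the partners in ISGF3, stood at 71.7, 58.03, 61.5 and 51.3 and 51.05, 24.1, 35.9 and 21.1 CPM. Ifi35, which encodes an interferon-induced scaffold protein, stood at 103, 102, 86.6 and 74.5 CPM, and Oas1a, an enzyme that makes 2'-5' oligoadenylate when it meets double-stranded RNA, at 59.7, 44.4, 62.4 and 36.2 CPM. DPBS WT was the highest library for these genes except Oas1a, for which Papain WT was. The mean of Xaf1, a gene tied to apoptosis, was 59.7 CPM in this class and that of Parp14, an ADP-ribosyltransferase, 54.5 CPM. That of Mx1, a gene of the dynamin-like GTPase family, was 24.1 CPM. Gbp2, Gbp3 and Irgm1 had means of 40.9, 35.7 and 38.2 CPM. Ifi44 was hardly detected, with means of at most 0.601 CPM in the 9 classes.

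Neutrophil-like cells held a different selection. Isg15, a ubiquitin-like modifier, stood at 988, 1062, 873 and 665 CPM there against 246, 189.8, 173 and 106 CPM in classical monocyte-like cells. Rsad2 (viperin), which makes a chain-terminating nucleotide, stood at 141, 168, 246 and 184 CPM against 54.2, 45.8, 44.8 and 33.9 CPM. Isg15, Isg20, Oas3, Oasl2, Rsad2 and Trim30a were higher in neutrophil-like cells than in any other of the 9 classes in every pairing of libraries. The exonuclease gene Isg20 had a mean of 131 CPM, Oas3 of 99.2 CPM, Oasl2, an OAS-like protein gene, of 222 CPM and Trim30a, a TRIM-family gene, of 223 CPM. Ifit1, with a mean of 17.1 CPM against 15.5 CPM in CD4 T-like cells, and Rtp4, Oas2 and Oasl1 also had their highest means there, the last 3 at 144, 32.9 and 42.6 CPM. Not all members shared this: Mx1 had a mean of 0 CPM in these cells, Phf11b and Gbp3 were at 1.98 and 2.204 CPM, and Bst2 was at 13.3 CPM. The class held 119, 109, 356 and 231 cells of median depth 3262, 2962, 3147 and 3326 UMIs.

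The 8 GTPase genes, whose products restrict microbes inside the cell, were split between lineages: 4 of them, Igtp, Gbp4, Iigp1 and Ifi47, had their highest mean in a T-like class, 3 in classical monocyte-like cells and 1 in NK-like cells. Igtp, an immunity-related GTPase, stood at 75.4, 90.2, 92.2 and 89.1 CPM in CD4 T-like cells and 48.8, 45.7, 56.7 and 46.3 CPM in CD8 T-like cells, against a mean of 24.2 CPM in classical monocyte-like cells. Gbp4 stood at 51.1, 46.2, 55.9 and 63.9 CPM in CD4 T-like and 55.1, 46.5, 53.3 and 50.5 CPM in CD8 T-like cells, while the monocyte, neutrophil and macrophage classes had means of at most 2.297 CPM. NK-like and ILC2-like cells were close to the T-like classes for Gbp4, with means of 48.8 and 48.5 CPM. Ifi47 was at 120.1, 99.3, 122 and 109 CPM in CD8 T-like and 100.5, 89.6, 103 and 111 CPM in CD4 T-like cells. The 4 libraries of the CD4 and CD8 classes overlapped for Gbp4 and Ifi47, and those of Igtp did not. Iigp1 was nearly T-restricted, with means of 9.13 CPM in CD4 T-like cells, 4.37 CPM in CD8 T-like cells and at most 0.373 CPM in the other 7 classes. Irf1, the factor induced by interferon gamma, was broad, with means of 159.5 CPM in CD4 T-like, 158 CPM in CD8 T-like, 156 CPM in nonclassical monocyte-like and 153 CPM in NK-like cells. Gbp7 and Ddx58, which encodes the RNA sensor RIG-I, had their highest means in NK-like cells, at 63.9 and 43.3 CPM, in a class of only 53 to 158 cells.

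Alveolar macrophage-like cells were at the low end for several members although their median depth was 18744, 18982, 16239 and 19608 UMIs per cell. Ifit3 had a mean of 0.486 CPM, Mx1 of 0.396 CPM and Usp18, the protease that removes ISG15, of 0.5697 CPM in this class. Other members were higher: Bst2 had a mean of 86.7 CPM, Trim30a of 43.5 CPM and Ifih1 of 24.4 CPM. By role, the median level averaged over the 4 libraries was 0.586 CPM for the IFIT genes and 1.37 CPM for the 2-5A and nuclease genes. It was 18.1 CPM for the sensors. The effectors were mixed, since Mx1 and Bst2 are both among them.

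The comparison of genotypes asked whether the members differ where Ift20 is deleted in T cells. The clearest separation was in classical monocyte-like cells, which should keep Ift20. After DPBS, 36 members had at least 30 UMIs over the 2 libraries, and all 36 were lower in KO than in WT, with a median log2 ratio of -0.68, against -0.050 over all genes tested. In the papain libraries 35 of 36 were lower in KO, with a median of -0.78 against -0.051. Of all genes, 57.2% and 57.4% were below 0. After DPBS, 10 members were at least 2-fold lower and 0 at least 2-fold higher, where 2.65% of all genes tested were at least 2-fold lower and 3.86% were past 2-fold in either direction. After papain the counts were again 10 and 0, beside 2.02% and 2.8% of all genes. Papain against DPBS had 0 members past 2-fold in either genotype, beside 2.97% of all genes in WT and 1.86% in KO. Most members were still lower after papain, 30 of 36 in WT and 27 of 34 in KO, beside 46.1% and 49.6% of all genes. The member medians were -0.26 and -0.30, against 0.027 and 0.0056 over all genes.

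**Figure D3:**
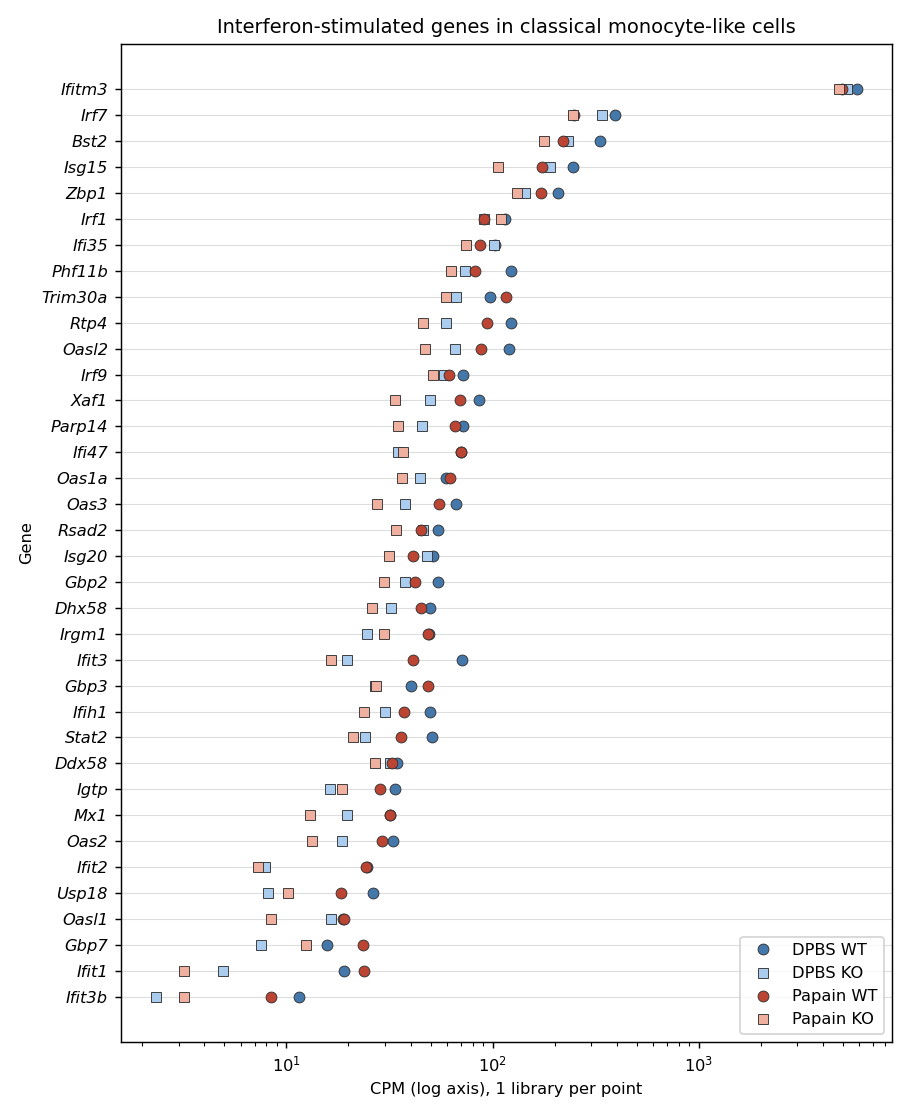
Level of the 36 members with at least 30 UMIs in classical monocyte-like cells, in CPM on a log axis, with 1 point per library (circles WT, squares KO, blue DPBS, red papain). All 36 blue squares lie left of the blue circles, and 35 of 36 pink squares lie left of the red circles.

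The IFIT genes, whose proteins bind viral RNA that lacks the host's cap marks, showed the widest gap. Ifit1 had 73, 17, 132 and 11 UMIs. It stood at 19.1 CPM in WT and 4.93 in KO after DPBS and at 23.7 in WT and 3.19 in KO after papain. KO against WT gave log2 ratios of -1.95 (-2.81 to -1.18) after DPBS and -2.90 (-3.93 to -2.01) after papain. Both WT libraries were several times above both KO libraries. Ifit3 stood at 71.2 CPM in WT and 19.7 in KO after DPBS and at 41.2 in WT and 16.5 in KO after papain, with ratios of -1.85 (-2.26 to -1.46) and -1.32 (-1.76 to -0.89). Ifit2 stood at 24.6 CPM in WT and 7.83 in KO after DPBS and at 24.4 in WT and 7.24 in KO after papain, with ratios of -1.65 (-2.33 to -1.02) and -1.75 (-2.43 to -1.13). Both kept the order of Ifit1, with WT above KO in each treatment. Ifit3b had only 44, 8, 47 and 11 UMIs, and its ratios were -2.31 (-3.61 to -1.21) and -1.41 (-2.50 to -0.44). The median over the 4 IFIT genes was -1.90 after DPBS and -1.58 after papain.

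Other roles moved less. Usp18, which also dampens signalling at the type I receptor, stood at 26.4, 8.12, 18.3 and 10.1 CPM, with a log2 ratio of KO to WT of -1.70 (-2.36 to -1.09) after DPBS and -0.85 (-1.45 to -0.29) after papain. Its partner Isg15 had ratios of -0.38 (-0.52 to -0.23) and -0.71 (-0.89 to -0.54). Stat2 stood at -1.08 (-1.47 to -0.71) after DPBS and -0.77 (-1.17 to -0.37) after papain. After papain the members past 2-fold included the effector Mx1, at -1.29 (-1.79 to -0.81), and Oasl1, at -1.18 (-1.83 to -0.58). In both treatments Rtp4, a receptor-transporting protein gene, was at or beyond 2-fold, at -1.04 (-1.29 to -0.80) and -1.02 (-1.29 to -0.76), from 123, 59.8, 93.6 and 46.1 CPM. The remaining members past 2-fold were Gbp7, Igtp and Ifi47 after DPBS, and Oas2, Xaf1 and Oas3 after papain. The role medians after DPBS and papain were -0.62 and -0.96 for the 2-5A and nuclease genes and -1.01 and -0.78 for the GTPases. They were -0.58 and -0.52 for the sensors, -0.38 and -0.35 for the effectors, and -0.32 and -0.14 for the transcription factors. Ifitm3 and Irf7 differed little: Ifitm3 had ratios of -0.17 (-0.20 to -0.15) and -0.054 (-0.082 to -0.027), and Irf7 of -0.22 (-0.33 to -0.10) and -0.014 (-0.14 to 0.11).

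The makeup of the class moved with the genotype. Ly6c2, a marker of classical monocytes and itself known to answer interferon, stood at 911, 533, 616 and 434 CPM. Cells with UMIs of more classical than nonclassical markers made up 41.6, 35.2, 54.9 and 30.97% of the class. In those cells alone (143, 101, 242 and 83) the member median of KO against WT was -0.67 after DPBS and -0.37 after papain, and in the remaining cells it was -0.54 and -0.74. Classical monocyte-like cells gated on their own marker UMIs, a smaller class, had a median of -0.14 after DPBS and Ifit2 at 0.11. Of the genes that mark interstitial macrophages, Apoe, an apolipoprotein gene, stood at 1876, 1920.2, 1896 and 2502 CPM, with Papain KO the highest library, while the complement genes C1qa and C1qb stood at 2.88, 6.09, 6.83 and 6.66 CPM and at 48.95, 44.97, 42.6 and 33.9 CPM. The markers of other lineages summed to 72.3, 18.6, 61.8 and 97.3 CPM for 6 T cell markers, 142, 34.8, 74.2 and 102 CPM for 6 B cell markers and 185, 221, 262 and 266 CPM for 7 neutrophil markers. All markers of these 3 lists were detected in each library, and the part of all these genes in the member ratios was not tested.

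Within a class, cells differed in how many ISG UMIs they held. Most monocytes and neutrophils held some: of 14 core members, at least 1 UMI was seen in 91.3 to 95.1% of classical monocyte-like and 73.2 to 83.7% of neutrophil-like cells. The 10% of cells with the most core UMIs held 44.8 to 53.7% and 38.6 to 56.9% of the core UMIs. To compare cells at equal depth, each cell was thinned to 2000 UMIs and called ISG-high when UMIs of at least 3 of the 14 were seen. The core members were the 4 IFIT genes, Isg15, Rsad2, Usp18, Oasl1, Oasl2, Oas1a, Mx1, Irf7, Rtp4 and Ifi44. ISG-high is a range of a count and not a cell type. In classical monocyte-like cells the ISG-high cells were 66 of 343 cells in DPBS WT, 19.2% (15.2% to 23.8%), 21 of 286 cells in DPBS KO, 7.34% (4.602% to 11.01%), 68 of 441 cells in Papain WT, 15.4% (12.2% to 19.1%) and 12 of 267 cells in Papain KO, 4.49% (2.34% to 7.72%). The KO share was thus below the WT share in both treatments, with intervals that did not overlap and log2 ratios of -1.39 (-2.17 to -0.66) after DPBS and -1.78 (-2.80 to -0.88) after papain. Unthinned cells gave shares of 64.5, 49.1, 58.7 and 44.8%. The median depth was 11032, 12267, 12860 and 12564 UMIs per cell, so the KO cells were not shallower after DPBS. In neutrophil-like cells the ISG-high cells were 24 of 111 cells in DPBS WT, 21.6% (14.4% to 30.4%), 13 of 90 cells in DPBS KO, 14.4% (7.92% to 23.4%), 78 of 299 cells in Papain WT, 26.1% (21.2% to 31.5%) and 22 of 220 cells in Papain KO, 10% (6.37% to 14.7%). There the KO share was lower in both treatments, with log2 ratios of -0.58 (-1.68 to 0.45) and -1.38 (-2.14 to -0.69), and the intervals of the shares overlapped after DPBS but not after papain.

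**Figure D4:**
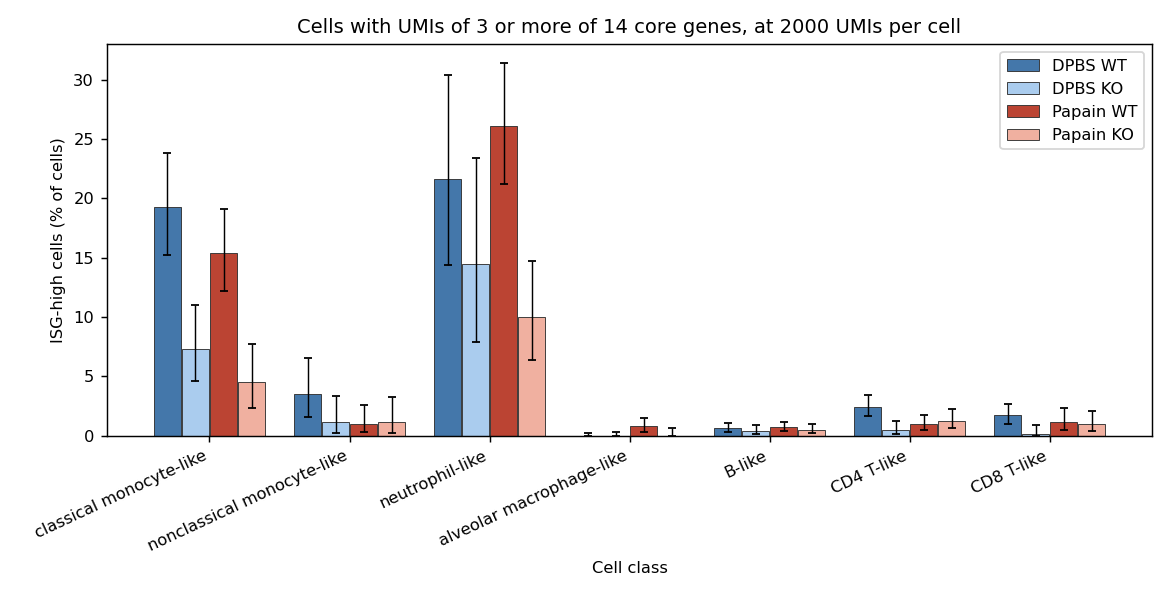
Share of ISG-high cells (UMIs of at least 3 of 14 core members after thinning to 2000 UMIs per cell) in 7 classes, in percent of the cells counted, with 1 bar per library and 95% exact binomial intervals for counting error. Classical monocyte-like and neutrophil-like cells reach 4.49% to 26.1%, and the other 5 classes stay under 4%.

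A list of 60 other ISGs, of which 57 were found in the matrices, was not used to call these cells. In classical monocyte-like cells its genes had a median log2 ratio of ISG-high to remaining cells of 1.07 for WT and 1.11 for KO after DPBS and 1.21 for WT after papain, against -0.037, -0.11 and -0.041 over all genes. Above 0 were 46 of 49, 37 of 44 and 46 of 49 of its genes, beside 45.3, 41.7 and 44.8% of all genes. In neutrophil-like cells the medians were 0.53 for WT after DPBS, and 0.64 for WT and 1.05 for KO after papain. Over all genes they were -0.016, 0.013 and -0.022. For the 29 ISG-high CD4 T-like cells of the DPBS WT library the median was 1.64 over 43 genes, against -0.070 over all genes. The cells with several core ISGs thus held more of the other ISGs too. The other classes and libraries had under 20 ISG-high cells and are not given.

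In nonclassical monocyte-like cells the same direction was seen after DPBS. Of 29 members tested, 25 were lower in KO, beside 53.6% of all genes, with a median of -0.46 against -0.023 over all genes. At least 2-fold lower were 6 members, and 0 were at least 2-fold higher, beside 2.39% of all genes past 2-fold. These 6 were Ifit3, Oasl2, Rtp4, Oas3, Xaf1 and Ifi47. Ifit3 was at -1.55 (-2.92 to -0.34) and Oasl2 at -1.19 (-1.87 to -0.54), the latter from 31.3, 13.7, 21.2 and 13.9 CPM. After papain the median was -0.21, against -0.011 over all genes, with 1 member past 2-fold, beside 1.27% of all genes. Papain against DPBS had 1 member lower and 1 higher in WT, beside 1.74% of all genes, and 1 higher in KO, Ifi47 at 1.06 (0.16 to 2.01), beside 1.6%. Mx1 was the lower one in WT, at -1.19 (-2.02 to -0.39).

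The higher one was Ifit1, and it rested on 1 cell. Ifit1 had 7, 5, 50 and 1 UMIs in this class, and its log2 ratio was 2.44 (1.29 to 3.82) for papain against DPBS in WT and -5.34 (-10.67 to -2.80) for KO against WT after papain. A single Papain WT cell of 6493 UMIs held 45 of the 50 Ifit1 UMIs of that library. The same cell held 42 of 59 Rsad2 UMIs, 11 of 15 Ifit2 UMIs and 22 of 48 UMIs of Cxcl10, an interferon-induced chemokine gene. It also held 41 UMIs of Ifnb1, which encodes interferon beta, and these were all the Ifnb1 UMIs of the class. Over all cells kept, Ifnb1 had 7, 6, 52 and 15 UMIs. Without that cell the Ifit1 UMIs after papain were 5 for WT and 1 for KO. Rsad2, at 18.8, 17.04, 21.5 and 18.4 CPM with it, then had log2 ratios of -1.59 for papain against DPBS in WT and 1.57 for KO against WT after papain. The 1 cell therefore set the Papain WT level of Ifit1, Ifit2 and Rsad2 in this class.

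In neutrophil-like cells enough members could be compared in 2 of the 4 comparisons. KO was lower than WT after papain for 22 of 26 members, beside 48.9% of all genes, with a median of -0.38 against 0.011 over all genes. Only Gbp2, a guanylate-binding protein gene of the interferon gamma response, was past 2-fold, at -1.10 (-1.84 to -0.40), beside 3.95% of all genes. Papain against DPBS in WT gave a median of 0.29 over 22 members, with 2 at least 2-fold higher, beside 5.63% of all genes past 2-fold. These were Irgm1, an immunity-related GTPase gene, at 1.85 (0.16 to 4.20), and Oas2 at 1.004 (0.11 to 2.03). Neutrophil-like levels of Rsad2 were 141, 168, 246 and 184 CPM and those of Isg15 988, 1062, 873 and 665 CPM, with the KO library below the WT library after papain for both. The remaining comparisons had 16 and 13 members with enough UMIs and are not counted.

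T-like cells are where CD4 cre acts. In CD4 T-like cells after DPBS, 27 of 35 members were lower in KO, beside 52.8% of all genes. The median was -0.41 against -0.020 over all genes, and 5 members were at least 2-fold lower with 0 higher, beside 2.04% of all genes past 2-fold. After papain the median was -0.050, against -0.11 over all genes, with 1 member past 2-fold, beside 3.54%. Scaling by TMM factors raised all ratios of that comparison by 0.10 and turned its member median to 0.048. Rsad2 went in opposite directions. It stood at 8.41 CPM in WT and 2.36 in KO after DPBS and at 2.696 in WT and 5.64 in KO after papain, from 55, 12, 19 and 32 UMIs, and KO against WT was -1.84 (-2.87 to -0.92) after DPBS and 1.06 (0.20 to 1.96) after papain. Ifit3 stood at 14.8, 6.48, 4.82 and 7.397 CPM, with -1.19 (-1.81 to -0.61) for KO against WT after DPBS, and Usp18 stood at 10.4, 4.13, 6.24 and 6.69 CPM, with -1.33 (-2.11 to -0.61). DPBS WT was the highest library for these 3 genes. Oas3 and Xaf1 were the other members at least 2-fold lower. Papain against DPBS in WT had 2 members lower, Rsad2 at -1.64 (-2.48 to -0.87) and Ifit3 at -1.62 (-2.23 to -1.04), and 1 higher, Gbp3 at 1.18 (0.75 to 1.63), beside 4.23% of all genes. In KO only Rsad2 was past 2-fold, at 1.26 (0.26 to 2.35), beside 1.38%.

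The CD8 T-like class had a like pattern after DPBS. There 32 of 34 members were lower in KO, beside 56.3% of all genes. The median was -0.42, against -0.042 over all genes, and 5 members were at least 2-fold lower, beside 2.39% of all genes past 2-fold. Ifit3 stood at 19.9 CPM in WT and 5.66 in KO after DPBS and at 13.5 in WT and 12.1 in KO after papain, with a log2 ratio of KO to WT of -1.82 (-2.47 to -1.22) after DPBS. Oasl1, Usp18, Dhx58 and Rsad2 were the others, at -1.61 (-3.18 to -0.31), -1.41 (-2.30 to -0.61), -1.36 (-2.46 to -0.38) and -1.22 (-2.47 to -0.12). DPBS KO was the lowest library for Ifit3, and the papain libraries lay close together. After papain 0 members were past 2-fold between genotypes, beside 1.65% of all genes, with a median of -0.16 against -0.085 over all genes. Papain against DPBS had 1 member past 2-fold in WT, Oasl1 at -1.08 (-2.35 to 0.042), beside 2.15%, and 3 higher in KO (Dhx58, Rsad2 and Ifit3), beside 1.37%.

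ISG-high cells were few in the T-like classes. In the CD4 T-like class they were 29 of 1196 cells in DPBS WT, 2.42% (1.63% to 3.46%), 4 of 841 cells in DPBS KO, 0.476% (0.1297% to 1.21%), 11 of 1149 cells in Papain WT, 0.957% (0.479% to 1.71%) and 11 of 871 cells in Papain KO, 1.26% (0.632% to 2.25%). In the CD8 T-like class they were 18 of 1042 cells in DPBS WT, 1.73% (1.03% to 2.72%), 1 of 618 cells in DPBS KO, 0.162% (0.004097% to 0.898%), 7 of 611 cells in Papain WT, 1.15% (0.462% to 2.35%) and 7 of 701 cells in Papain KO, 0.999% (0.402% to 2.05%). DPBS WT had the highest share in both classes and DPBS KO the lowest. The makeup of both classes differed between libraries too: the sub-cluster led by Dusp10, Igfbp4, Trib2, Itm2a made up 32.6, 60.8, 40.2 and 44.4% of CD4 T-like cells, and its part in the member ratios was not tested.

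In alveolar macrophage-like cells the comparison with most members past 2-fold was papain against DPBS in WT. Of 34 members, 11 were at least 2-fold higher in Papain WT than in DPBS WT and 0 lower, with a median of 0.49 against -0.063 over all genes, beside 3.19% of all genes at least 2-fold higher and 4.37% past 2-fold. Oas3 had 4, 1, 47 and 4 UMIs, and its log2 ratio was 4.24 (2.79 to 6.17). Usp18 had 3, 3, 32 and 2 UMIs and a ratio of 4.10 (2.42 to 6.45). Ifit1 was at 2.71 (1.90 to 3.60), Rtp4 at 2.36 (1.65 to 3.12), Oasl2 at 2.31 (1.62 to 3.06) and Oas2 at 2.12 (1.03 to 3.33). Rsad2, Gbp4, Ifitm3, Ifi47 and Gbp3 were the other 5. Ifitm3 stood at 9.305, 7.22, 21.95 and 10.996 CPM, and the part of free monocyte RNA in these values was not tested. Papain WT was the highest library for Oas3, Usp18 and Ifitm3. UMIs of the 14 core members were unevenly spread over the cells. The 10% of cells with the most held 52.9, 52.7, 70.3 and 59.6% of them. ISG-high cells numbered 0, 0, 8 and 0, of 1435, 1223, 1024 and 551 cells counted. Below 0 were 5 of 34 members in WT and 4 of 28 in KO, beside 60.8% and 50.5% of all genes. The KO median was 0.21, against -0.0022 over all genes. In KO, 4 members were at least 2-fold higher after papain, beside 3.34% of all genes past 2-fold: Rtp4 at 1.51 (0.47 to 2.58), Isg15 at 1.25 (0.995 to 1.51), Rsad2 at 1.25 (0.25 to 2.25) and Oasl2 at 1.09 (-0.041 to 2.23). Isg15 stood at 13.9, 10.3, 19.4 and 24.4 CPM, with Papain KO the highest library.

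Between genotypes, 8 members of this class were at least 2-fold lower in KO after papain and 0 higher, with a median of -0.33, beside 1.9% of all genes at least 2-fold lower and 2.67% past 2-fold. Usp18 was at -3.37 (-6.48 to -1.40), Oas3 at -2.92 (-4.86 to -1.47), Oas2 at -2.12 (-4.10 to -0.60), Oasl2 at -1.61 (-2.52 to -0.80), Ifit1 at -1.49 (-2.40 to -0.66) and Rtp4 at -1.18 (-1.97 to -0.44). After DPBS 2 of 30 were lower, Ifit3 and Oasl1, beside 1.4% of all genes, and the median was -0.060. Genes of another macrophage state moved with these ratios. Mmp12, a macrophage elastase gene, stood at 8.54, 18.1, 303 and 34.6 CPM in the class and Arg1, an arginase gene of type 2 responses, at 0.978, 1.06, 87.7 and 0.991 CPM. Cells that clustering without alignment of the libraries put in a cluster led by Mmp12 made up 1.52, 6.699, 38.9 and 7.76% of the class. Without them the member median of papain against DPBS in WT was 0.094, with 4 of 30 members at least 2-fold higher, beside 0.631% of all genes. The median in KO was then 0.22, with 4 of 27 at least 2-fold higher, beside 2.04%, so it was not below that in WT. The median of KO against WT after papain was 0.052 without them, with 0 of 26 at least 2-fold lower, beside 0.534%. Those cells numbered 22, 84, 417 and 43, of median depth 1727, 2490.5, 12708 and 17515 UMIs, and in them alone the median member stood at 11.4 CPM for WT and 7.91 CPM for KO after papain. The DPBS cells were too few and shallow for a median level.

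B-like cells, the class with most cells in each library, had small ratios, most of them below 0 between genotypes. The median log2 ratio was 0.030 for papain against DPBS in WT and -0.093 in KO, with 3 and 0 members past 2-fold, beside 2.77% and 1.48% of all genes. The 3 were Gbp2, at 1.29 (0.93 to 1.67), Gbp7, at 1.13 (0.82 to 1.44), and Oas3, at 1.03 (0.061 to 2.08). Gbp2 stood at 8.42, 6.29, 20.6 and 10.4 CPM and Gbp7 at 11.9, 10.4, 25.98 and 13.6 CPM, both highest in Papain WT. The makeup of the class moved with this: a cluster led by Ly6a, Ms4a1, Mzb1 and Dnase1l3 made up 5.09, 5.14, 12.96 and 8.904% of it, and the 2 red cell markers summed to 0.396, 1.46, 535 and 397 CPM. Their part in these ratios was not tested. KO was lower than WT for 24 of 33 members after DPBS (72.7%, against 47.97% of all genes) and for 31 of 35 after papain (88.6%, against 51.6%). The medians were -0.11 and -0.20, against 0.011 and -0.0087 over all genes, with 0 and 1 members past 2-fold, beside 1.14% and 1.73%. The 1 was Oas3, at -1.28 (-2.42 to -0.26).

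**Figure D5:**
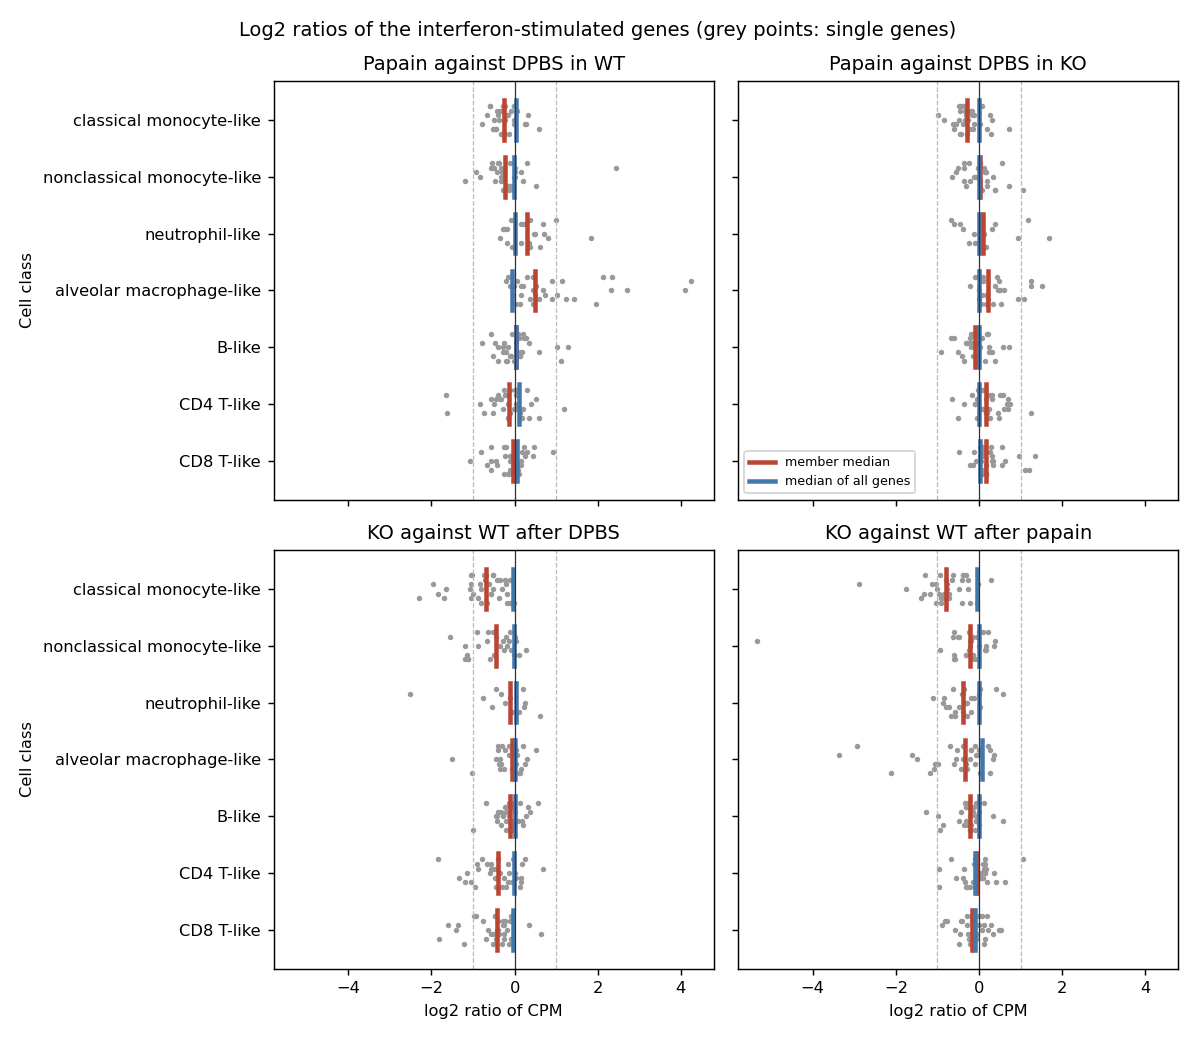
Log2 ratio of CPM of each member with at least 30 UMIs over 2 libraries (grey points) in 7 classes for the 4 comparisons, with the member median (red bar) and the median of all genes tested (blue bar), and dashed lines at 2-fold. The red bar lies left of the blue bar in the 6 classes with at least 20 members for KO against WT after DPBS (neutrophil-like cells have 13), the widest gap being that of classical monocyte-like cells, and the far left point of nonclassical monocyte-like cells after papain is Ifit1, which rests on 1 cell.

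The wider list of other ISGs went the same way in classical monocyte-like cells. Of its 50 genes with enough UMIs after DPBS, 7 were at least 2-fold lower in KO and 1 higher, beside 2.65% and 1.21% of all genes, with a median of -0.50 against -0.050. Those farthest from 0 were Ly6a, which encodes the surface protein Sca-1, at -1.66 (-2.20 to -1.14), Irgm2 at -1.64 (-2.76 to -0.64), and, on opposite sides, Pml, a nuclear body gene, at -1.39 (-2.18 to -0.65) and Cxcl9, a chemokine gene of the interferon gamma response, at 1.39 (0.85 to 1.94). After papain its median was -0.39 against -0.051, with 5 of 50 lower, beside 2.02% of all genes, among them Cxcl9 at -1.42 (-2.20 to -0.70), Gbp5 at -1.34 (-2.30 to -0.47), Herc6 at -1.32 (-1.88 to -0.79) and Oas1g at -1.14 (-2.25 to -0.14). Cxcl9 thus changed sides between the treatments.

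Genes upstream of the ISGs differed less in their median in classical monocyte-like cells. The 27 ligand, receptor, sensor and signalling genes with enough UMIs in that class, of 40 listed, had medians of KO against WT of -0.13 after DPBS and -0.11 after papain. At least 2-fold lower were 2 of them after DPBS and 1 after papain, with 0 higher, beside 2.65% and 2.02% of all genes. The lowest ratios were -1.75 and -1.17. Of the type I ligands, Ifna1 and Ifna4 had 0 UMIs in every library, Ifna2 had 1 UMI in all, and Ifnb1 had those given above. The type III ligands Ifnl2 and Ifnl3 had 0 UMIs. A count of 0 here says only that no molecule was captured in these cells. Ifng, the type II ligand, stood at 336, 185, 534 and 284 CPM in NK-like cells. Ifnar2, a chain of the type I receptor, stood at 143, 153, 128 and 141 CPM in classical and 152, 182, 139 and 167 CPM in nonclassical monocyte-like cells.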

How the data were processed

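Per the labels, lung CD45.2+ cells of 4 libraries were profiled with 10x Genomics 3' v3 chemistry. The authors deposited whole-number UMI counts per gene and barcode, with 3.1.0 as the software version in the matrix headers. The submitters' processing notes name Cell Ranger and mm10. The parameters are not given in the sources used here.

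Barcodes with more than 200 genes and under 15% mitochondrial UMIs were kept, and the barcodes with the highest Scrublet scores (scanpy 1.11.5) were removed up to 0.8% per 1000 barcodes. Seurat 5.3.0, run in R 4.3.3, aligned the libraries and clustered the cells at resolution 0.8 from 30 dimensions of 2000 variable genes, leaving out the members, the other ISG and pathway lists and Ift20. Clusters were named by markers, and T cells were clustered again. Named classes with at least 50 cells in each library were compared.

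UMIs of a gene were summed per class and library and scaled to CPM, with exact Poisson intervals for levels, exact binomial intervals for shares and exact conditional intervals for log2 ratios. These treat UMIs and cells as independent and cover counting error only. A gene was tested with at least 30 UMIs over 2 libraries and called at 2-fold, and members were counted where at least 20 were tested. In a comparison, up to 6 members past 2-fold with the largest ratios were named with values (up to 4 for the other lists), and every member was named once by role. Alternatives included TMM factors of edgeR 4.0.16. Sums, intervals and plots were made with pandas 2.3.3, scipy 1.17.1, numpy 2.4.6 and matplotlib 3.10.9 under Python 3.11.15, and the ratio step was tested on simulated data.

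The members and lists were chosen with earlier results of these data known, and the subsets of classes after seeing the data. Gene positions are from GENCODE M21 (GRCm38) and promoters from RefSeq (GRCm38.p6).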

Additional observations from a re-analysis of the deposited data

Results flagged for a closer look

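Rsad2 in CD4 T-like cells was singled out because its ratios pointed in opposite directions. For papain against DPBS the log2 ratio was -1.64 (-2.48 to -0.87) in WT and 1.26 (0.26 to 2.35) in KO, and for KO against WT it was -1.84 (-2.87 to -0.92) after DPBS and 1.06 (0.20 to 1.96) after papain. Each library stands for 1 group, from 55, 12, 19 and 32 UMIs (WT and KO after DPBS, then WT and KO after papain), and the difference between these effects was not tested.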

How the results depend on the processing

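Gating classes on each cell's own marker UMIs moved the most values, and its classical monocyte-like class was small. The median member ratio of that class became -0.017 for papain against DPBS in WT, -0.55 in KO and -0.14 for KO against WT after DPBS, where Ifit2 turned to 0.11. Nonclassical monocyte-like cells then had -0.25 for papain against DPBS in KO and -0.51 for KO against WT after papain, and alveolar macrophage-like cells had -0.060 for the latter. The median levels over the 4 libraries became 26.1 CPM in nonclassical monocyte-like, 11.3 in NK-like, 2.23 in ILC2-like and 11.8 in B-like cells (11.7 with doublets kept). Clusters without alignment of the libraries gave -0.19 for papain against DPBS in WT in CD8 T-like cells, 0.099 for the same in alveolar macrophage-like cells, 0.038 for KO against WT after papain there, and -0.30 for Oasl2 after papain in KO. The log2 ratio of ISG-high shares in classical monocyte-like cells, KO to WT after DPBS and papain, was -0.39 and -0.39 without thinning and -0.63 and -0.63 with 2 core members, and -0.40 after DPBS when gated. Of the alternatives chosen after seeing the data, leaving out ISG-high cells, which were called from 14 of the members so that a smaller gap follows from the choice, gave classical monocyte-like medians of -0.15 for papain against DPBS in KO, -0.40 for KO against WT after DPBS and -0.31 after papain. It gave CD4 T-like medians of 0.065 for papain against DPBS in WT and -0.14 for KO against WT after DPBS, and a CD8 T-like median of 0.069 for papain against DPBS in KO. Cells with more classical markers had -0.37 for KO against WT after papain. Without the Mmp12-led cells the macrophage medians were 0.094 for papain against DPBS in WT and 0.052 for KO against WT after papain. Some of these settings use smaller sets of cells, and the cause of these changes was not tested. In all, 270 of 288 alternative class medians stayed within the span of the middle members, 49 of 54 levels within 1 SD over the libraries and 27 of 32 share ratios within their counting interval. Of 224 alternative ISG-high shares 92 moved beyond their interval, most of them with another depth or number of core members. Of 461 values of single members, 399 kept direction and side of the 2-fold line, 60 fell short of it and 2 turned.

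Counts of members past 2-fold moved more, with 118 of 286 beyond 1.5 times. The settings included a call at 1.5-fold in place of 2-fold, which calls more of all genes too. The shares of all genes at these settings are not given, so the ranges show only how far the counts move. Members called in classical monocyte-like cells, KO against WT, ranged from 2 (gated) to 20 (1.5-fold call) after DPBS around the 10 given, and from 7 to 24 after papain. For alveolar macrophage-like cells they ranged from 3 (at least 100 UMIs) to 16 for papain against DPBS in WT and from 0 to 13 for KO against WT after papain. For CD4 T-like cells, KO against WT after DPBS, they ranged from 2 to 12. No library could be left out, because each group held 1. No paired analysis was possible because the groups share no more than 1 replicate number. Depth limits the low members: a gene with 30 UMIs over 2 libraries has an interval that can hold both no difference and a 2-fold one.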

Other observations

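Some cells outside the compared classes held members at high levels. Cells with UMIs of at least 3 of 6 plasmacytoid dendritic cell markers, a cell type known for making type I interferon, numbered only 11, 3, 21 and 9 (WT and KO after DPBS, then WT and KO after papain). In the sums of these cells Bst2 stood at 2575, 934, 3947 and 3028 CPM, Irf7 at 132, 42.5, 229.5 and 209.99 CPM and Ifi44, hardly seen elsewhere, at 0, 0, 55.5 and 40.6 CPM. An unnamed cluster led by S100a8, S100a9, Hdc and G0s2 (53, 39, 67 and 61 cells) had Isg15 at 355, 177, 308 and 341 CPM and Ifitm3 at 3335, 2828, 2924 and 2735 CPM. An unnamed cluster led by Retnla, C1qa, C1qb and Mgl2 (107, 75, 238 and 125 cells) had Ifitm3 at 939, 1042, 581 and 1381 CPM and Ifit3 at 3.29, 3.29, 1.31 and 1.64 CPM. In the S100a8-led cluster the median member stood at 29.3, 21.8, 27.1 and 32.6 CPM, with KO above WT after papain. Its ISG-high shares were 13.2, 5.26, 8.96 and 13.1%. An unnamed T cell cluster, led by Ccl5, Tnfsf11, Tnfsf8 and Gata3, held 116, 85, 293 and 110 cells. Its median member stood at 27.5, 23.3, 27.5 and 21.3 CPM. Only named classes with at least 50 cells in each library were compared, so only values are given here.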
